A study of Mus musculus with 4 samples.

Results

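The genes described here are 30 genes of cholesterol and fatty acid synthesis, read in single cells of hypoxic mouse lung. They were chosen by symbol from the 31253 gene identifiers of the series, and all 30 were found once. Of these, 22 form the sterol arm (Acat2, Hmgcs1, Mvk, Pmvk, Mvd, Idi1, Fdps, Fdft1, Sqle, Lss, Cyp51, Tm7sf2, Msmo1, Nsdhl, Hsd17b7, Ebp, Sc5d, Dhcr7, Insig1, Insig2, Srebf2 and Stard4) and 8 the fatty acid arm (Fasn, Acaca, Acly, Scd1, Scd2, Elovl1, Elovl6 and Srebf1). The samples were lungs of WT and of Vegfr2Y949F mice on the C57BL/6J background, 6 to 8 weeks old, and both genotypes had been kept in hypoxia for 6 weeks. In Vegfr2Y949F mice phenylalanine replaces a tyrosine of VEGFR2, through which endothelial cells chiefly sense VEGF-A, and the Vegfr2Y949F libraries are called mutant below. Libraries A and B of each genotype, 4 in all, were pools of 2 mice each, so single mice cannot be told apart. No normoxic lungs were analysed here, and the genotype labels were not checked by expression, since a gene's count says nothing of the altered codon.

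The sterol arm turns acetyl-CoA into cholesterol through mevalonate, isoprenoids, squalene and lanosterol. The fatty acid arm turns citrate-derived acetyl-CoA into long-chain fatty acids, which are then elongated and desaturated. SREBP2 (gene Srebf2) and SREBP1 (gene Srebf1) are the transcription factors known to drive the respective arms, and the INSIG proteins hold them in the endoplasmic reticulum when sterols are abundant. In the lung, alveolar type 2 cells make surfactant, a mixture rich in phospholipid with saturated chains and some cholesterol, while macrophages take surfactant lipid up.

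SREBP is known to act at sterol response elements beside CCAAT boxes and GC boxes, so the proximal promoters were read for these letters. RefSeq promoters (GRCm38.p6) were held for 24 of the 30 members, with no entry for Fdps, Fdft1, Sqle, Stard4, Scd1 and Scd2. In the 250 bases before the start, on both strands, the sterol response element TCACNCCAC stood in 1 of 24 members, Hmgcs1, and in 1.22% of all 27025 genes with an entry. CCAAT stood in 20 of 24 members (83.3%), against 37.5% of all genes, and GGGCGG also in 20 of 24, against 35.4%. Some genes had several starts, and a gene counted if any of them matched. Per start, CCAAT stood in 21 of 32 for members, against 33.8% of all 32851, and GGGCGG in 24 of 32, against 32.7%. Of the sterol arm 17 of 18 had CCAAT and of the fatty acid arm 3 of 6 did, namely Fasn, Elovl1 and Srebf1. The 4 stretches below end at the base before the start and are shown for the enzyme of the mevalonate step with the only sterol response element match and for 3 members whose levels set cell types apart below. Capitals mark matches to the 3 motifs or their complements, and in Fasn a CCAAT and an ATTGG match overlap. A match is a description of the letters and not a binding site.
Hmgcs1, chr13:119690151-119690350, plus strand: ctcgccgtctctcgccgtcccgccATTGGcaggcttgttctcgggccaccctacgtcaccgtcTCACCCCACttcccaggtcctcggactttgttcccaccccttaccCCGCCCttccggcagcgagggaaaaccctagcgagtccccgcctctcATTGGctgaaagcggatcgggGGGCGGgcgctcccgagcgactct
Mvd, chr8:122443423-122443522, minus strand: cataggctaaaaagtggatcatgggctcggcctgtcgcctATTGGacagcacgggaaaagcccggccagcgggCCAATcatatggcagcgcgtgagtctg
Fasn, chr11:120824548-120824647, minus strand: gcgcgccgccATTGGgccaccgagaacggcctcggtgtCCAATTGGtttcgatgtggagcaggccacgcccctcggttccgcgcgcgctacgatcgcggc
Sc5d, chr9:42264301-42264400, minus strand: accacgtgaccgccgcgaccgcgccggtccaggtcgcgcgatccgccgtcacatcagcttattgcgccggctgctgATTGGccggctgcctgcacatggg

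The 4 libraries held 83606389 to 96521589 unique molecular identifiers (UMIs), and 9304 to 11446 cells of each were kept. The B libraries were deeper per cell, with medians of 5472 and 5548.5 UMIs against 4339 and 4312 in the A libraries. Pairs of libraries shared 43 to 70 cell barcodes, and in general capillary cells no pair agreed within counting error (chi-square divided by its degrees of freedom, 13.3 to 75.4). Clusters were named from marker genes, with the 30 members left out of the clustering, which gave 23 named types, and 24.2% of cells stayed unnamed. Levels are UMIs summed per library and type and scaled to CPM, the count per 1e6 UMIs of that sum, given as mean ± SD of the 4 libraries. CPM carry no further normalization between types, unlike the edgeR fold changes below, so ratios of CPM can differ from them. Insig2 had 34.55 CPM in alveolar type 2 and 52.01 in alveolar type 1 cells over 3 libraries, with an edgeR log2 fold change of -0.196 (SE 0.217). Of the named types 18 had at least 20 cells in every library. Alveolar type 2 (8 to 81 cells a library), ciliated (15 to 35), B cell (13 to 159), natural killer (5 to 48) and group 2 innate lymphoid (19 to 69) sums rest on fewer cells and were not tested by genotype.

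**Figure D1:**
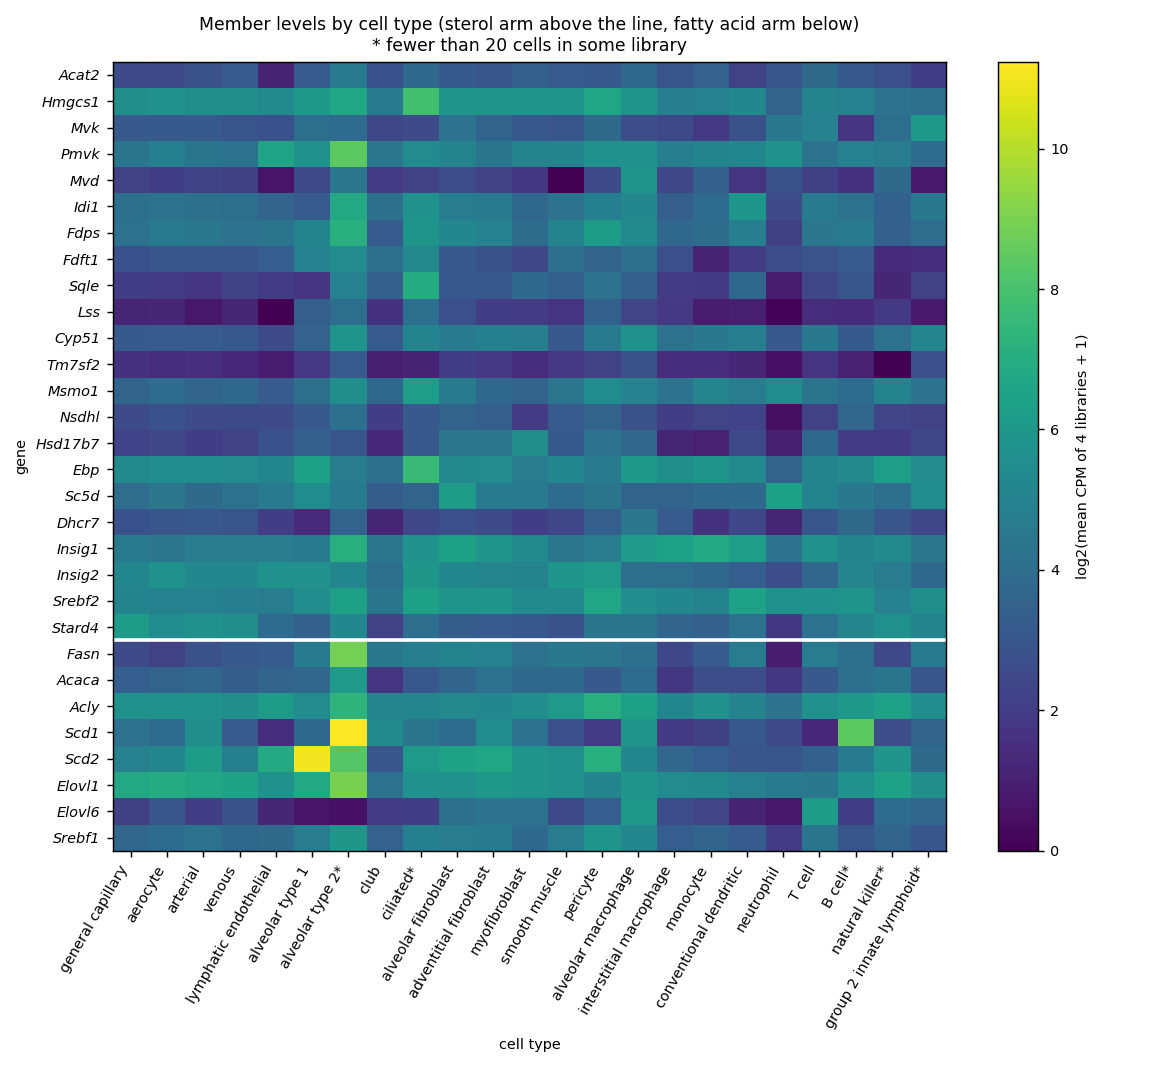
Each row is a gene and each column a cell type, and the colour is log2(mean CPM of the 4 libraries + 1). The brightest cells are Scd1 in alveolar type 2 cells and Scd2 in alveolar type 1 cells.

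Alveolar type 2 cells had the highest mean level of 15 of the 30 members (9 sterol, 6 fatty acid) and ciliated cells of 5, when all 23 types were ranked. Among the 18 larger types, pericytes, the mural cells of capillaries, had the highest mean of 8 members (Hmgcs1, Fdps, Sqle, Lss, Insig2, Srebf2, Acly and Srebf1) and alveolar macrophages of 5 (Mvd, Cyp51, Tm7sf2, Dhcr7 and Scd1). For 23 of the 30 members the highest of these types overlapped the next in its libraries, so those ranks do not stand beyond the spread. The highest type stood clear of the second in all 4 libraries for Hmgcs1, Mvd, Cyp51, Hsd17b7, Acaca, Scd2 and Srebf1.

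Summed over its 22 genes, the sterol arm stood at 1316 ± 611 CPM in alveolar type 2 cells, 1122 ± 106 in ciliated cells, 665 ± 165 in pericytes and 637 ± 87.1 in alveolar macrophages. The other types lay between 225 ± 15.6 CPM in club cells and 586 ± 55.9 in alveolar fibroblasts, and all endothelial cells together had 381 ± 9.04. All endothelial cells here means the named general capillary, aerocyte, arterial and venous cells, without lymphatic cells or unnamed endothelial clusters. The fatty acid arm spread far more widely, from 61.0 ± 4.92 CPM in neutrophils to 2326 ± 113 in alveolar type 1 cells and 3961 ± 1391 in alveolar type 2 cells, with 244 ± 27.3 in all endothelial cells. The log2 ratio of the sterol to the fatty acid sum, used to order cell types and not to compare genes, was 2.46 ± 0.15 in neutrophils and 0.65 ± 0.18 in all endothelial cells. It was below 0 in alveolar type 1 cells (-2.13 ± 0.10), alveolar type 2 cells (-1.64 ± 0.24) and B cells (-0.37 ± 0.35). The B cell sums also hold endothelial RNA, described with Scd1 below. The ratio in alveolar type 1 cells rests on Scd2, since without Scd1 and Scd2, a setting chosen after seeing the data, it was 1.31. As the difference of the arms' mean log2(CPM + 1), which weights each gene alike, the endothelial value also changed sign, to -0.64, and the neutrophil value fell to 0.44. In neutrophils Sc5d (79.5 CPM) and Msmo1 (43.7 CPM) made up much of a sterol sum of 335 ± 25.5 CPM. Neutrophils had the lowest mean of the larger types for other sterol members, among them Hmgcs1, Ebp and Stard4.

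**Figure D2:**
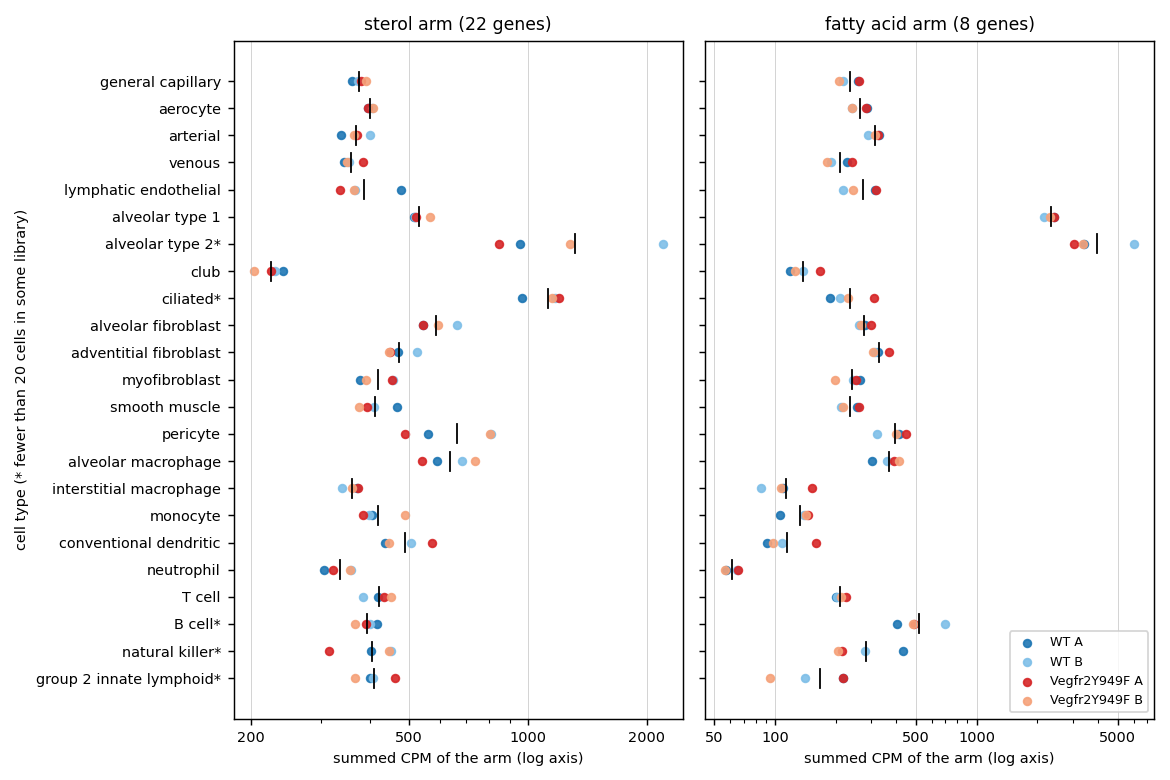
Each point is 1 library's summed CPM of an arm in a cell type on a log axis, and the black bar is the mean of the 4 libraries. The sterol sums of most types lie between 335 and 665 CPM, while the fatty acid sums run from 61.0 CPM in neutrophils to 3961 in alveolar type 2 cells.

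Across the 18 larger types the members of an arm varied together about as much as genes at large. Among members with a mean of at least 10 CPM over types, the median Spearman rho was 0.21 over 91 pairs within the sterol arm, 0.27 over 21 pairs within the fatty acid arm and 0.17 over 98 pairs between the arms. The median over all pairs of 8907 genes was 0.20. The closest pairs were Fdps with Srebf1 (rho 0.87), Mvk with Sc5d (0.86) and Hmgcs1 with Scd2 (0.81), and the most opposed was Msmo1 with Elovl1 (-0.48). These are descriptions over types of the same 4 libraries.

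The desaturases Scd1 and Scd2 insert the double bond that makes monounsaturated from saturated chains, and each was concentrated in an alveolar epithelial type. Scd2 (ENSMUSG00000025203, mm10 chr19:44293674-44306864, plus strand) and Scd1 (ENSMUSG00000037071, mm10 chr19:44394455-44407879, minus strand) both lie on chromosome 19. Scd2 stood at 2174 and 1951 CPM in WT A and WT B alveolar type 1 cells and at 2161 and 2107 CPM in mutant A and B. The next of the larger types, pericytes, had 129, 101, 151 and 143 CPM in the same order, so all 4 alveolar type 1 values lay far above. In alveolar type 1 cells the spread of Scd2 between libraries was small, 2098 ± 102 CPM.

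Scd1 was highest in alveolar type 2 cells, with 1822 CPM in WT A, 4074 in WT B, 1743 in mutant A and 2012 in mutant B. B cells followed with 242, 511, 277 and 308 CPM, and no other named type passed 66.0 CPM in any library. Alveolar macrophages had 57.5 ± 8.66 CPM, arterial cells 45.5 ± 10.7, adventitial fibroblasts 43.8 ± 7.13 and club cells 40.1 ± 9.96, and their libraries overlapped. Free RNA from alveolar type 2 cells, scaled by the surfactant gene Sftpc, would give 1.07 to 5.72 CPM of Scd1 in B cells, 0.45 to 1.85 in arterial cells and 0.35 to 2.24 in alveolar macrophages, below the observed 242, 34.3 and 48.6 CPM of their lowest libraries. In alveolar type 1 cells the same scaling gave up to 34.4 CPM in mutant A, where Sftpc stood at 1540 CPM and 27.5 CPM was observed. In the other 3 libraries the scaling gave 2.62, 4.04 and 0.71 CPM of Scd1 in alveolar type 1 cells (WT A, WT B and mutant B), below the observed 7.34, 14.3 and 4.06 CPM. Scaled by Ager, a marker of alveolar type 1 cells, Scd2 would reach at most 8.54 CPM in pericytes and 3.56 CPM in arterial cells, where at least 101 and 62.8 CPM were observed.

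**Figure D3:**
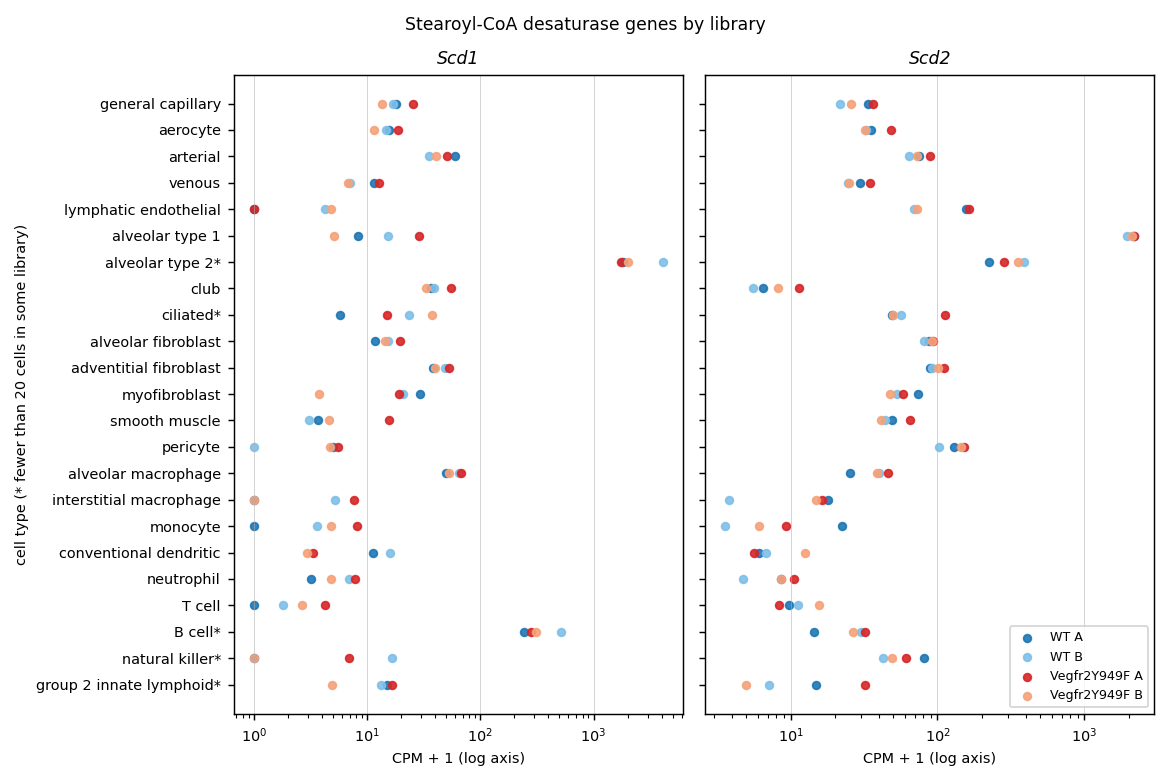
Each point is 1 library's CPM + 1 of Scd1 (left) or Scd2 (right) in a cell type, on a log axis. Scd1 is highest in alveolar type 2 cells and then B cells, and Scd2 is highest in alveolar type 1 cells at 1951 to 2174 CPM.

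Elovl6, which elongates saturated chains of palmitate length, was highest among the larger types in T cells and alveolar macrophages. T cells had 49.9, 85.9, 77 and 79.0 CPM in WT A, WT B, mutant A and mutant B, and alveolar macrophages 60.8, 53.9, 53.5 and 84.4 CPM. These 2 types overlapped, while the next of the larger types, myofibroblasts, had 18.4 ± 7.18 CPM. Elovl1, which extends very long chains, was spread more evenly, with 125 ± 16 CPM in aerocytes, 111 ± 5.15 in alveolar type 1 cells and 483 ± 145 in alveolar type 2 cells. Fasn, the fatty acid synthase itself, had 467 ± 103 CPM in alveolar type 2 cells and no more than 31.8 ± 5.74 in any of the 18 larger types. Acly, which makes acetyl-CoA from citrate, had 134 ± 27.8 CPM in pericytes, and Acaca, which makes malonyl-CoA, 17.3 ± 1.37 in adventitial fibroblasts. Srebf1 had 60.7 ± 20.2 CPM in alveolar type 2 cells and 56.0 ± 15.7 in pericytes.

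Among the 18 larger types, the sterol members whose highest type stood farthest above the median type were Mvd, Hsd17b7, Lss and Stard4. Mvd, which decarboxylates mevalonate diphosphate, stood at 48.6 and 58.6 CPM in WT and at 47.3 and 66.5 CPM in mutant alveolar macrophages (A and B in each). Monocytes, the next of the larger types for Mvd, had 0, 14.3, 16 and 8.86 CPM, so alveolar macrophages stood clear in every library. Hsd17b7, a ketosteroid reductase of the demethylation steps, stood at 45.0, 41.5, 57.5 and 46.6 CPM in myofibroblasts, in the order WT A, WT B, mutant A and mutant B. Adventitial fibroblasts had 21.2 ± 2.96 CPM and alveolar fibroblasts 21 ± 3.38, which overlapped each other and lay below all 4 myofibroblast values.

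Stard4, a carrier that moves sterol between membranes, had its highest levels of the larger types in blood endothelial cells. General capillary cells had 72.6, 62.6, 79.3 and 59.6 CPM of it, arterial cells 51.7 ± 10.2, venous cells 47.0 ± 7.56 and aerocytes 43.7 ± 6.59, and the arterial range overlapped the other 3. Lss, lanosterol synthase, stood at 4.95, 11.3, 14.7 and 9.86 CPM in pericytes and 11.7, 10.5, 7.77 and 8.11 CPM in alveolar type 1 cells, which overlapped. Among the remaining early enzymes, Hmgcs1 had 229 ± 88.1 CPM in ciliated cells and 95.3 ± 17.7 in pericytes. Pmvk, the phosphomevalonate kinase, had 337 ± 187 CPM in alveolar type 2 cells, and Mvk, the mevalonate kinase, 30.3 ± 14.9 in T cells and 62.4 ± 28.8 in group 2 innate lymphoid cells. Idi1, the isopentenyl diphosphate isomerase, had 58.4 ± 15.5 CPM in conventional dendritic cells and 108 ± 44.8 in alveolar type 2 cells. Acat2, Fdft1, Nsdhl, Tm7sf2 and Dhcr7 had means under 30 CPM in each of the 18 larger types.

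Ciliated cells stood out for squalene epoxidase Sqle, with 149, 96.3, 139 and 112 CPM in WT A, WT B, mutant A and mutant B, against 17.9 ± 9.08 in pericytes, the highest of the larger types. They also had 190.3 ± 45.7 CPM of the sterol isomerase Ebp. Sc5d, which inserts a ring double bond to give 7-dehydrocholesterol, was high in neutrophils (79.5 ± 17.6 CPM) and alveolar fibroblasts (72.0 ± 3.15). Msmo1, the methylsterol oxidase, reached 43.7 CPM in neutrophils. Of the regulators, Insig1 had 113 ± 11.4 CPM in monocytes, Insig2 64.6 CPM in pericytes and Srebf2 95.5 ± 9.75 in pericytes.

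Related types were then compared in 5 pairs within libraries, with edgeR over all genes and the library as a block. The members were left out of the clustering, but the lists of other lipid genes were not, so those genes can have helped to set the types apart. Alveolar type 2 against alveolar type 1 cells used the 3 libraries with at least 10 type 2 cells, a choice made after seeing the cell numbers, since WT A held 8. Of the sterol arm, 20 of 22 members passed the low count filter, and 13 were called higher and 1 lower in type 2 cells. Of the fatty acid arm, 7 of 8 passed, with 6 higher and 1 lower. The background was 32.5% of 9445 genes called (17.6% higher, 14.9% lower), and the medians were 1.75 and 2.42 on the log2 scale against -0.06 over all genes. The largest sterol arm differences were those of Idi1 (log2 fold change 4.13, SE 0.32, edgeR adjusted p = 8.13e-05), Sqle (4.01, SE 0.46), Pmvk (3.13, SE 0.38) and Cyp51, the lanosterol demethylase (3.11, SE 0.37).

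In the fatty acid arm Scd1 differed by 7.98 (SE 0.65, edgeR adjusted p = 9.37e-05), Fasn by 4.69 (SE 0.31), Acaca by 2.88 (SE 0.38), Acly by 2.42 (SE 0.24), Elovl1 by 2.39 (SE 0.26) and Srebf1 by 1.87 (SE 0.34), all higher in type 2 cells. Scd2 went the other way (-2.21, SE 0.25, adjusted p = 0.000406), as did Ebp of the sterol arm (-1.35, SE 0.24, adjusted p = 0.00381). The lineage markers of endothelial cells (Pecam1, Cdh5, Cldn5, Tie1 and Egfl7) summed to 436 CPM in WT B, 2770 in mutant A and 1930 in mutant B type 2 cells, against 230 to 884 CPM in type 1 cells and 5520 to 5830 in arterial cells. Scaled by Ager, type 1 RNA would give 130 to 193 CPM of the 281 to 387 CPM of Scd2 observed in type 2 cells of these 3 libraries. The type 2 sums of the mutants thus hold more endothelial RNA than those of WT B, and its part in the result was not tested. Among other lipid genes, Fads1, Fads2 and Gpam were higher in type 2 cells by 4.11, 3.63 and 4.55, and Elovl5 was lower by -1.37, of 10 fatty acid and glyceride genes tested with 5 higher and 1 lower. Of 6 genes tested from a list of sterol efflux and LXR genes, 2 were called higher in type 2 cells and 2 lower. The higher were Nr1h3, the receptor LXR alpha (2.85), and Mylip (1.56), and the exporter Abca1 was among the lower (-2.84, SE 0.26). Of 6 sterol uptake and storage genes 3 were higher, among them the lysosomal sterol carrier Npc2 (3.87, SE 0.35), and 1 was lower, the lysosomal lipase Lipa (-1.84, SE 0.34).

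Alveolar against interstitial macrophages gave 5 of 10 tested sterol members (4 higher, 1 lower in alveolar macrophages) and 5 of 6 fatty acid members, all 5 higher, with 42.9% of 6501 genes called (19.5% higher, 23.5% lower). The other 12 and 2 members did not pass the filter. Scd1 was higher by 3.82 (SE 0.45, edgeR adjusted p = 1.27e-05), Elovl6 by 3.49 (SE 0.40), Mvd by 3.34 (SE 0.37), Idi1 by 1.47 (SE 0.37), Srebf1 by 1.46 (SE 0.32), Scd2 by 1.40 (SE 0.40), Cyp51 by 1.37 (SE 0.31), Fdps by 1.24 (SE 0.32) and Acly by 0.86 (SE 0.23). Insig1 was lower (-0.67, SE 0.20, edgeR adjusted p = 0.0159), which DESeq2 did not call (adjusted p = 0.0538). The medians were 0.60 for the sterol and 1.43 for the fatty acid members tested against 0.02 over all genes. Other lipid genes also differed, with Abcg1 higher by 4.21, Nr1h3 by 2.42, Lpin1 by 3.54, Dgat2 by 2.99 and Dgat1 by 2.41. Abca1 was lower (-0.79), as were Cyp27a1 (-5.13) and Fads1 (-3.82). Of 7 genes tested from the list of sterol efflux and LXR genes, 2 were higher and 4 lower. The list holds Nr1h2, Nr1h3, Abca1, Abcg1, Mylip, Cyp27a1 and Ch25h, of which only Abca1 and Abcg1 are exporters. The endothelial lineage markers summed to 131 to 1470 CPM in alveolar macrophages and 351 to 949 in interstitial macrophages, and their part was not tested.

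Arterial against venous endothelial cells gave 0 of 16 sterol members called by edgeR, and 2 of 7 fatty acid members were called, both higher in arterial cells, with 24.0% of 9315 genes called (10.9% higher, 13.1% lower). Scd1 stood at 58.2, 34.3, 50.1 and 39.5 CPM in arterial cells, in the order WT A, WT B, mutant A and mutant B, and at 8.46 ± 3.01 in venous cells, a log2 fold change of 2.43 (SE 0.18, adjusted p = 3.41e-10). Scd2 stood at 73.7, 62.8, 87.6 and 71.0 CPM in arterial and 27.5 ± 4.64 in venous cells (1.41, SE 0.12, adjusted p = 2.43e-09), and for both genes every arterial value lay above every venous value. The polyunsaturated desaturase Fads2 was higher still in arterial cells (4.06, SE 0.20, 63.6 against 3.76 CPM), while Elovl7 (-2.78, SE 0.33) and the cholesterol hydroxylase Ch25h (-3.27, SE 0.10, 39.6 against 377 CPM) were higher in venous cells. Ch25h was among the top genes of the venous cluster and was not left out of the clustering. Epithelial markers summed to 5.39 to 12.6 CPM in arterial and 3.23 to 4.48 CPM in venous cells. Fads1, the other polyunsaturated desaturase tested, was not called (0.15, SE 0.20, edgeR adjusted p = 0.666), and 6 of the 22 sterol members did not pass the low count filter.

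General capillary cells against aerocytes, the large capillary cells of gas exchange, gave 9 of 22 sterol members (3 higher, 6 lower) and 6 of 8 fatty acid members (2 higher, 4 lower), where 57.7% of 12387 genes were called (29.8% higher, 27.9% lower). The differences were small. Higher in general capillary cells were Stard4 (0.67, SE 0.05, edgeR adjusted p = 3.96e-09), Fasn (0.49, SE 0.15), Scd1 (0.34, SE 0.08), Insig1 (0.19, SE 0.07) and Srebf2 (0.15, SE 0.06). Higher in aerocytes were Elovl6 (-0.99, SE 0.18), Insig2 (-0.57, SE 0.05), Pmvk (-0.53, SE 0.07), Sc5d (-0.45, SE 0.07), Fdps (-0.43, SE 0.07), Scd2 (-0.33, SE 0.07), Msmo1 (-0.33, SE 0.10), Srebf1 (-0.22, SE 0.09), Elovl1 (-0.18, SE 0.04) and Ebp (-0.14, SE 0.05). Of these 15 calls DESeq2 made 9, and it did not call Insig1, Srebf2, Srebf1, Fasn, Msmo1 and Ebp (adjusted p 0.0688 to 0.23). The edgeR adjusted p of Srebf2, Srebf1 and Insig1 lay at 0.0362 to 0.0395, and without WT B or without mutant B none of these 3 was called. The sterol exporter Abca1 was also higher in general capillary cells (0.59, SE 0.06), and Abcg1 higher in aerocytes (-0.95, SE 0.06).

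Alveolar against adventitial fibroblasts gave 8 of 22 sterol members, 6 higher and 2 lower in alveolar fibroblasts, and 4 of 8 fatty acid members, all 4 lower, with 44.6% of 11413 genes called (20.4% higher, 24.2% lower). The alveolar fibroblasts joined a cluster of 2262 and another of 1006 cells, doublets included. The smaller cluster had a marker score of 1.42 against 3.80. Among its top 10 genes, led by Mmp3 and C4b, were 0 alveolar fibroblast markers, and its part in the result was not tested. Sc5d led with 72.0 ± 3.15 against 24.8 ± 1.21 CPM (1.45, SE 0.10, edgeR adjusted p = 4.20e-09), followed by Msmo1 (0.88, SE 0.14), Lss (0.82, SE 0.30), Pmvk (0.64, SE 0.16), Mvk (0.59, SE 0.18) and Insig1 (0.47, SE 0.10). Cyp51 (-0.36, SE 0.12) and Ebp (-0.25, SE 0.09) were lower. Scd1 had 14.2 ± 3.25 against 43.8 ± 7.13 CPM (-1.72, SE 0.11, adjusted p = 3.96e-09), Acaca -0.64 (SE 0.15), Elovl1 -0.42 (SE 0.08) and Scd2 -0.24 (SE 0.07). Of these 12 calls DESeq2 made 7, without Ebp, Cyp51, Mvk, Lss and Scd2, and 7 remained without mutant B, when Ebp, Pmvk, Cyp51, Mvk and Lss were lost. Of 11 further fatty acid and glyceride genes tested, 6 were higher and 1, Me1, lower in alveolar fibroblasts (-0.56, SE 0.12). The glyceride genes Lpin1 (1.92, SE 0.10), Dgat2 (1.25, SE 0.17) and Gpam (1.08, SE 0.08) were among the 6, and Dgat1 was not called (-0.20, SE 0.16, edgeR adjusted p = 0.35).

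The genotype was compared on library sums. In all endothelial cells (17240 cells: general capillary, aerocyte, arterial or venous) edgeR called 0 of 30 members, 0 had an unadjusted p under 0.05, and DESeq2 also called 0. Unnamed endothelial clusters left unresolved by their markers were added in a setting chosen after seeing the data (23057 cells in all). There edgeR also called 0 members, and the median log2 fold changes of the sterol and fatty acid arms were 0.02 and 0.03. The background was 0% of 13733 genes called by edgeR, with 1.24% at an unadjusted p under 0.05. In the sterol arm 12 members were higher and 10 lower in mutants, with a median log2 fold change of 0.01, and in the fatty acid arm 5 were higher and 3 lower, with a median of 0.03, against 0.00 over all genes tested. Both mutant libraries lay above both WT libraries for 9 members, where 15.4% of all genes did, and below for 2, where 7.19% did. Exact permutation of 2 against 2 libraries cannot go below p = 0.333, so edgeR was the test. It sets the difference against the spread between pools, estimated with information shared over genes, and not against the spread between mice.

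The largest differences were those of low members. Hsd17b7 had 2.98 and 3.34 CPM in WT A and B and 4.81 and 4.39 CPM in mutant A and B, without overlap (log2 fold change 0.48, SE 0.23, edgeR adjusted p = 1). Acat2, the cytosolic thiolase that makes acetoacetyl-CoA, had 5.75 and 5.83 CPM in WT and 4.60 and 4.42 CPM in mutants (-0.42, SE 0.20, adjusted p = 1). Tm7sf2, a sterol reductase, had 1.77 and 1.52 CPM in WT and 2.50 and 2.06 CPM in mutants (0.41, SE 0.29, adjusted p = 1). In the fatty acid arm Elovl1 had 135 and 106 CPM in WT and 109 and 97.2 CPM in mutants, which overlapped (-0.28, SE 0.16, adjusted p = 1). Acly had 48.5 and 45.6 against 61.5 and 49.1 CPM, without overlap (0.17, SE 0.14, adjusted p = 1), and Scd2 had 34.0 and 25.7 against 41.1 and 28.0 CPM, with overlap (0.14, SE 0.20, adjusted p = 1). None of these differences passed the test.

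**Figure D4:**
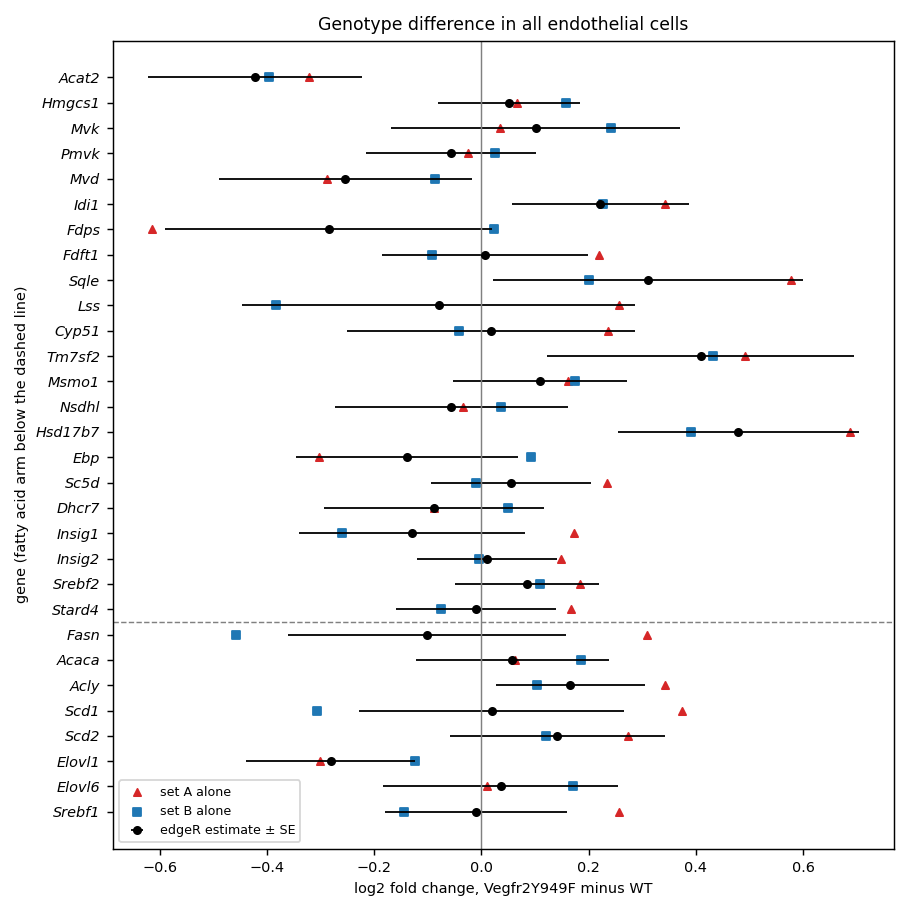
Black points are edgeR log2 fold changes (mutant minus WT) in all endothelial cells with bars of 1 SE, and coloured marks are the differences within set A and within set B. The coloured marks are of scaled UMIs without the edgeR normalization, so they can be offset from the black points. The values run from -0.42 (Acat2) to 0.48 (Hsd17b7), and Fdps, Scd1 and Fasn are among the genes whose 2 sets lie on opposite sides of 0.

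Within set A the median log2 difference of mutant minus WT was 0.17 for the sterol arm and 0.27 for the fatty acid arm, and within set B 0.03 and -0.01. These differences are of UMIs scaled to the library's sum (1 UMI added), without the edgeR normalization, and can be offset from the edgeR values. Srebf2 had 0.18 and 0.11 within sets A and B and 0.09 by edgeR. No median over all genes was computed within a set, so the medians do not show a shift of an arm. Scd1 had 17.0 and 15.1 CPM in WT A and B and 22.1 and 12.2 CPM in mutant A and B, so it was higher in the mutant of set A and lower in that of set B. Fasn did the same, with 4.87 and 5.04 CPM in WT and 6.04 and 3.67 CPM in mutants. A general capillary cluster led by Plvap came mostly from mutant libraries (280 WT and 1170 mutant cells), and without it, a setting chosen after seeing the data, 0 members were called and the arm medians were 0.01 and 0.07.

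In the 18 larger types tested singly, 0 of 371 member tests were called by edgeR, with 5 at an unadjusted p under 0.05 (1.35%, against 1.94% of all 150077 gene tests), and DESeq2 called 0. Over these types 5 of all gene tests were called (0.00333%). The 5 members at an unadjusted p under 0.05 were Fdps in adventitial fibroblasts (-1.16, SE 0.30), Tm7sf2 in aerocytes (1.03, SE 0.42), Sc5d in club cells (-0.97, SE 0.42), Dhcr7 in pericytes (-1.37, SE 0.62) and Mvk in T cells (0.96, SE 0.41), with edgeR adjusted p of 0.996 to 1. The median of the sterol members tested was above 0 in 8 and below 0 in 10 of the 18 types, from -0.21 in club cells to 0.18 in T cells. That of the fatty acid members was above 0 in 16 of 18 types, from -0.21 to 0.31. Within set A it was above 0 in 15 of 18 types and within set B in 7, and the types share the same 4 libraries. The values within sets lack the edgeR normalization and have no median over all genes beside them.

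Whether a genotype difference itself differed between types was tested for general capillary cells against aerocytes and against alveolar fibroblasts. EdgeR called 0 of 30 members in either test, where 0.171% and 0.00719% of genes were called. At an unadjusted p under 0.05 stood 1 and 3 members, and 4.44% and 3.99% of all genes. Other pathway genes came from 5 lists: SREBP processing, sterol uptake and storage, sterol efflux and LXR, isoprenoid, and further fatty acid and glyceride genes. In all endothelial cells edgeR called 0 of 35 of these genes tested, with 0 at an unadjusted p under 0.05. Over the 18 larger types they gave 0 of 428 tests called, with 4 at an unadjusted p under 0.05.

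Several members had the same library lowest or highest over many cell types, most often mutant A. Fdps, which makes farnesyl diphosphate for the sterol and isoprenoid branches, was lowest in mutant A in 17 of the 18 larger types, the exception being club cells. In all endothelial cells it had 20.3 and 23.4 CPM in WT A and B, 13.2 in mutant A and 23.8 in mutant B. In pericytes the values were 50.5 and 107 CPM in WT and 19.3 and 98.6 in mutants, and in adventitial fibroblasts 42.4 and 42.2 against 12.3 and 25.1 CPM. Of 8907 genes with a mean of at least 10 CPM over types, 15 (0.168%) were lowest in mutant A in at least 17 types. Mutant A was picked after Fdps was seen, and 41 genes (0.46%) were lowest in any 1 library in as many types. Ebp was lowest in mutant A in 13 types. Acly was highest in mutant A in 15 of 18 types, Scd1 in 14, Scd2 in 12 and Srebf2 in 11, and 363 genes (4.08%) were highest there in at least 14. For any 1 library that number was 437 genes (4.91%). Elovl1 was highest in WT A in 11 types, where Nsdhl was lowest in 12 and Cyp51 in 11, and Scd2 was lowest in WT B in 11. For members at 11 to 13 types the share over all genes was not counted, so these are descriptions only.

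**Figure D5:**
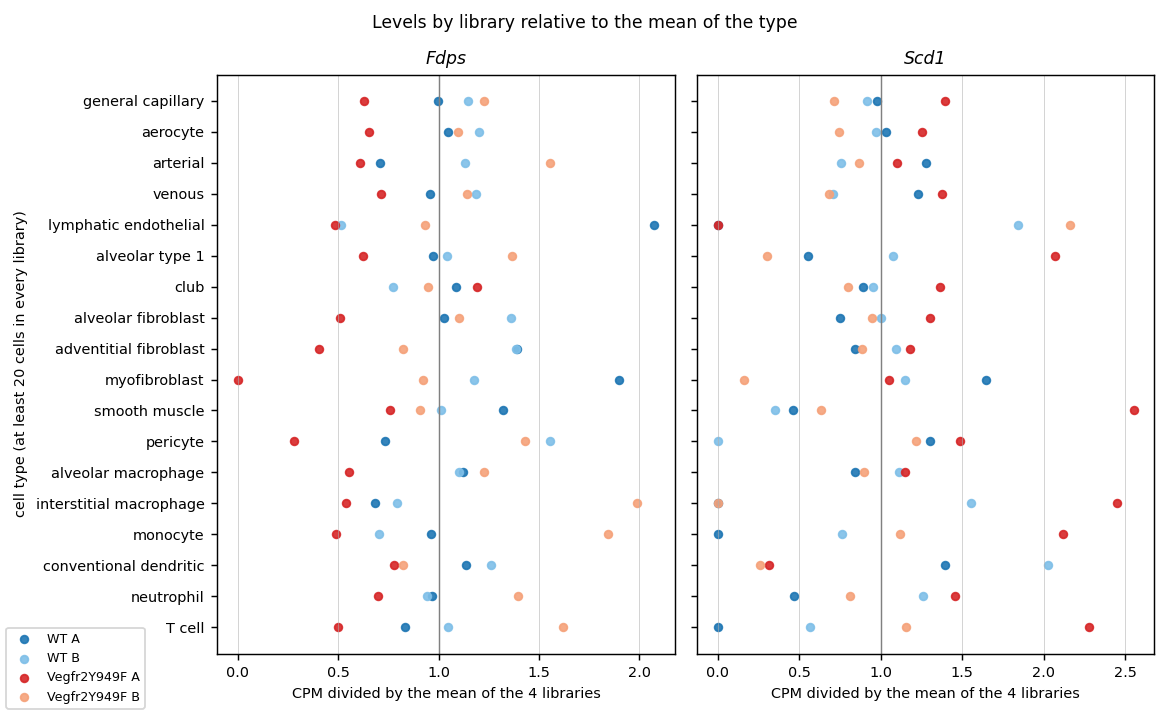
Each point is 1 library's CPM of Fdps (left) or Scd1 (right) divided by the mean of the 4 libraries in that cell type. Mutant A (dark red) is the lowest library for Fdps in 17 of 18 types and the highest for Scd1 in 14.

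Without mutant B, edgeR called Fdps lower in adventitial fibroblasts (-1.82, adjusted p = 0.015) and alveolar fibroblasts (-1.33, adjusted p = 0.0401), with mutant A as the lone mutant library. The spread then comes from the 2 WT libraries alone, and mutant A is the library already described as lowest for Fdps, so these values add no separate evidence. Without the low count filter it was called with all 4 libraries in adventitial fibroblasts (-1.17, adjusted p = 0.00677). Without mutant A the members called numbered 0 in these types. Without the edgeR normalization, the log2 difference of Fdps within set A was -0.61 in all endothelial cells and -1.73 in adventitial fibroblasts. Within set B it was 0.02 and -0.74.

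The set letter also moved with the balance of the arms. The log2 ratio of sterol to fatty acid sums in all endothelial cells was 0.47 and 0.52 in WT A and mutant A and 0.76 and 0.84 in WT B and mutant B. In 10 of the 18 larger types both B libraries lay above both A libraries. Mutant B lay above mutant A in 18 of 18 types and WT B above WT A in 13. In pericytes the sterol sum was 558 and 489.5 CPM in the A libraries and 809 and 801 CPM in the B libraries (WT, then mutant in each). What the letter stands for is not given in the labels. The B libraries were deeper per cell over all cells, and the part of depth in this balance was not tested. In alveolar type 1 cells the ratio was -2.22 and -2.21 in WT A and mutant A and -2.07 and -2.03 in WT B and mutant B.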

How the data were processed

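Lung cells of 4 pools were read with 10x Genomics droplets. The deposited matrices hold raw UMI counts, written by Cell Ranger 6.1.1, per the file headers. Build mm10, fastp, UMI-tools and Seurat 4.1.0 are named in the submitters' processing notes. Cell types were rebuilt here, so names can differ from the study's.

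Barcodes with at least 500 genes, 1000 UMIs and under 15% mitochondrial UMIs were kept, and the top 8% of Scrublet scores per library were removed as doublets, since its automatic threshold marked 0 to 387 cells. Clustering used scanpy 1.11.5 (2000 variable genes without the members, Kdr, sex-linked, mitochondrial, haemoglobin and ribosomal genes, 40 components, 15 neighbours, Leiden resolution 1.5, no integration). It gave 44 clusters, of which 12 stayed unnamed for a marker score leading by under 0.3, over 30% doublets, over 25% of another lineage's marker level, leading genes of another type or a low UMI count with no own marker leading. These limits were set after seeing the data.

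Sums per library and type were tested with edgeR 4.0.16 (quasi-likelihood, TMM, filterByExpr, Benjamini-Hochberg over all genes tested, adjusted p under 0.05), after a check on simulated data. DESeq2 1.42.0, other filters, kept doublets, the set letter as a block and leaving out each library were alternatives. Free RNA was estimated by scaling a source type's profile to a marker gene. The members, gene lists and markers were chosen with earlier results of these data known. Given per library were the 3 members of each arm with the largest endothelial genotype difference and the 3 whose highest type stood farthest above the median type (4 with a tie in the sterol arm), besides further members chosen after their values were seen. Gene coordinates are from GENCODE M21.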

Additional observations from a re-analysis of the deposited data

How the results depend on the processing

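Counts of members called by genotype stayed at 0 in all endothelial cells under each of 10 alternatives and at 0 in the interaction tests under each alternative run. Over the other types the count was 0 except for 1 without the low count filter (Fdps in adventitial fibroblasts, adjusted p = 0.00677) and 3 without mutant B, so leaving out 1 library gave 0 to 3. The 3 were Fdps in adventitial and alveolar fibroblasts and Scd1 in alveolar type 1 cells (1.28, edgeR adjusted p = 0.0312), where mutant A had 27.5 CPM beside a free RNA estimate of 34.4 CPM. With the set letter as a replicate block 0 members were called in all endothelial cells and 0 in the other types, and the arm medians were 0.01 and 0.01. The block changed no call. Differences between sets correlated between genotypes (r = 0.399 over 13733 genes), but the labels do not say that the letter marks a shared batch.

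The sterol median in all endothelial cells ran from -0.0099 to 0.106 when 1 library was left out and was 0.17 within set A. The fatty acid median ran from -0.06 to 0.13 and was 0.27 within set A. The values within set A lack the edgeR normalization, so they are not on the scale of the others. Pair counts changed for general capillary cells against aerocytes, from 15 members to 9 with DESeq2 (11 to 13 leaving out 1 library), and for alveolar against adventitial fibroblasts, from 12 to 7 with DESeq2 (7 to 10 leaving out 1 library, the lowest without mutant B). All 9 and all 7 members called by DESeq2 were among the main calls, in the same direction. Alveolar against interstitial macrophages gave 10, 7 to 11 leaving out 1 library and 15 without the low count filter, 9 of them shared with the 10. Arterial against venous cells gave 2 throughout, and alveolar type 2 against type 1 cells 16 to 24, with 22 over all 4 libraries.

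The log2 arm ratio in alveolar type 1 cells was -1.82 with doublets kept, -1.05 as a difference of mean log2(CPM + 1) and 1.31 without Scd1 and Scd2. In neutrophils it was 0.44 and 2.77 under the last 2 settings, and in all endothelial cells -0.64 and 0.97. With 2 pools a genotype, members with few UMIs per type often missed the low count filter, and 371 member tests were made over the 18 types.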
